A study of Mus musculus with 14 samples.

Results

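The genes described here are 38 genes of DNA repair and of the checkpoints that answer DNA damage, followed in activated mouse B cells. Each was taken as the row of the deposited expression table whose gene symbol equals a listed name, a rule that uses no measured value. The list of names itself was chosen with earlier results of these data known. All 38 names had a row, out of 22295 rows in the table. B cells were purified from spleen by removal of other cells and kept in culture for 96 h with lipopolysaccharide (LPS) at 5 µg/ml and interleukin-4 (IL-4) at 10 ng/ml, stimuli that make B cells divide and switch their antibody class. The genotypes were wild type (WT, 4 libraries), PU.1[155-/155-] (PU.1 KI, 5 libraries) and miR-155[-/-] (miR-155 KO, 5 libraries), and every library received the same stimuli for the same time. PU.1 KI mice carry a germline change in the gene of the transcription factor PU.1 that removes the site through which the microRNA miR-155 represses it, whereas miR-155 KO mice lack the microRNA itself. Neither allele is limited to B cells, so B cells of either strain also developed in an animal in which other cells carry the change. The design text calls the replicates biological. Which libraries shared a sequencing pool or a culture day is not stated in the labels, so neither could enter the fit.

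Cells answer a broken or stalled DNA strand with sensors that bind the lesion, kinases that signal from it, and enzymes that cut, copy and rejoin the strand. The kinase ATM answers double-strand breaks and ATR answers single-stranded DNA at stalled forks, and both halt the cell cycle through the checkpoint kinases CHK1 and CHK2. Activated B cells depend on this machinery because they divide fast and because the enzyme AID deaminates their antibody genes. Class switching is then completed by end joining, and mutations arise through mismatch repair and error-prone polymerases.

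Values are RPKM, which divide a gene's reads by its length in kb and by the library's depth in units of 1e6 reads, so that levels can be compared between genes. The depth recovered from the values was 31.4 to 52.2 M reads per library, with M for 1e6, at which 1 RPKM on a gene of 2 kb stands for 62.8 to 104 reads. Across all tested genes the first principal component held 66.1% of the variance. On it WT library 1 (-15.37) stood apart from the other WT libraries (-18.2 to -18.08), and miR-155 KO library 5 (19.85) from the other miR-155 KO libraries (24.18 to 27.65). The repair gene calls that changed without these libraries are therefore also given. Sfpi1, the gene of PU.1, checked the PU.1 KI labels: it was at 9.73, 12.5, 13.2 and 12.6 RPKM in WT, 21.1, 22.5, 25.6, 25.96 and 23.3 in PU.1 KI, and 16.7, 17.1, 15.5, 15.8 and 18.3 in miR-155 KO. It was higher than WT in all PU.1 KI libraries (log2 fold change 0.96 ± 0.08 SE, adjusted p = 5.85e-08) and in all miR-155 KO libraries (0.47 ± 0.08, adjusted p = 6.14e-05). The row of miR-155 itself was not used here. Of 8 B cell markers 7 passed the filter on low values and their summed level was 1610 to 2100 RPKM. Of 8 T cell, 10 macrophage, 8 neutrophil, 6 NK cell and 5 erythroid markers, 1, 1, 0, 0 and 0 passed, and 5 of the neutrophil markers were at 0 in every library. The T cell markers summed to 6.17 to 8.79 RPKM over all libraries. Macrophage markers summed to 6.6 to 7.67 RPKM in WT, 10.5 to 12.1 in PU.1 KI and 5.92 to 6.42 in miR-155 KO. Of these 10 markers 9 were under 1 RPKM in every library. Plasma cell markers summed to 417 to 501 RPKM in WT, 224 to 344 in PU.1 KI and 267 to 406 in miR-155 KO. They did not all move as this sum: of the 5 tested, 1 was higher and 2 lower in PU.1 KI than in WT. In miR-155 KO 1 was higher and 3 lower than in WT. The part of either marker group in the repair gene results was not tested. In such bulk RNA, fewer cells of a type and less RNA per cell cannot be told apart.

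A microRNA represses chiefly transcripts that carry a match to its seed, bases 2 to 8 of the mature strand. The mature miR-155-5p of the RefSeq table (GRCm38.p6, chr16:84714143-84714165, plus strand) is shown with its seed in capitals, followed by the places where a repair gene's 3′ UTR carries the matching bases, also in capitals.
mmu-miR-155-5p: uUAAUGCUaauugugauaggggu
Ercc1: tcatcccctcccaacAGCATTAagg
Mre11a: cactgaggtatagccAGCATTAggt
Both sites were found by searching for AGCATTA in the 3′ UTRs of GENCODE M21 (GRCm38). The Ercc1 site lies in the exonic 3′ UTR at chr7:19354533-19354557 (plus strand) of 1 of 2 annotated transcripts, and the Mre11a site at chr9:14835109-14835133 (plus strand), again in 1 of 2. The Ercc1 match is followed by a further A, which makes it the longer form AGCATTAA. Of the 38 repair genes 2 had such a match (5.26%), against 911 of 9395 tested genes with an annotated 3′ UTR (9.7%), and the repair genes' longest 3′ UTRs were shorter, with a median of 660 bases against 1141. Among tested rows with a match, 46.0% were called higher and 20.2% lower in miR-155 KO than in WT. Without a match, 25.3% were higher and 37.0% lower. Neither Ercc1 nor Mre11a was higher in miR-155 KO, where both were lower (their values follow with their groups). A match of these letters is a description and not a functional site.

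Of the 38 genes 37 passed the filter of 1 RPKM in at least 4 libraries, the exception being Lig4. WT means of the 37 ran from 1.58 RPKM (Palb2) to 76.6 (Parp1), with a median of 5.89. Above 10 RPKM lay 8 of them, between 2 and 10 lay 28, and Palb2 alone lay under 2. The spread between libraries of a genotype was small: the median coefficient of variation was 6.17% in WT, 7.61% in PU.1 KI and 8.69% in miR-155 KO, against 6.82%, 7.51% and 7.56% over all tested genes.

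In miR-155 KO the repair genes split, with 5 higher and 13 lower than in WT, while in PU.1 KI few moved. A gene is called where its Benjamini-Hochberg adjusted p in limma, taken over all 9627 tested genes, is under 0.05. In PU.1 KI against WT, 4 of 37 were higher (10.8%, against 23.7% of all tested genes) and 1 was lower (2.7%, against 4.03%), and the median log2 fold change was 0.04, against 0.08 over all tested genes. In miR-155 KO against WT, 13.5% were higher (all tested genes 27.2%) and 35.1% were lower (all tested genes 35.3%), with a median of -0.12 against -0.05. The share of repair genes that fell was thus that of any tested gene, and the share that rose was below it. Between the mutants, 2 were higher in miR-155 KO than in PU.1 KI (5.41%, against 17.9%) and 19 were lower (51.4%, against 46.4%), with a median of -0.16 against -0.13. Comparisons against WT share the WT libraries, and each is read by its own values. Changes were modest: 0 of the 5 called in PU.1 KI, and 1 of the 18 and 1 of the 21 called in miR-155 KO, reached 1.5-fold on the log2(RPKM + 0.5) scale, and that 1 was Exo1 each time. As a ratio of mean RPKM, Chek1 against WT also passed 1.5-fold (64.4% of the WT mean).

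The balance of higher and lower calls in PU.1 KI moved with the scaling of the libraries. Scaled by median of ratios, which shifted the median of all tested genes from 0.08 to -0.01, 3 repair genes were higher and 6 lower in PU.1 KI than in WT, against 17.5% and 15.6% of all tested genes. In miR-155 KO against WT the counts were then 6 and 13 (31.5% and 37.4% of all tested genes), and in miR-155 KO against PU.1 KI 5 and 15 (28.3% and 35.1%). A further setting, not planned beforehand, left out WT library 1 and miR-155 KO library 5. Shares of all tested genes were not counted under it. The calls on the deposited scale were then 3 higher and 1 lower, 5 higher and 15 lower, and 2 higher and 21 lower in the same order. Mdc1 was then lost in PU.1 KI against WT (adjusted p = 0.0649). In miR-155 KO against WT Blm was lost (0.0572), and H2afx (0.00235), Chek2 (-0.186, 0.0408) and Polh (-0.183, 0.0206) became lower. Rad50 (-0.176, 0.0475) and Xrcc1 (-0.145, 0.0352) became lower in miR-155 KO than in PU.1 KI.

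**Figure D1:**
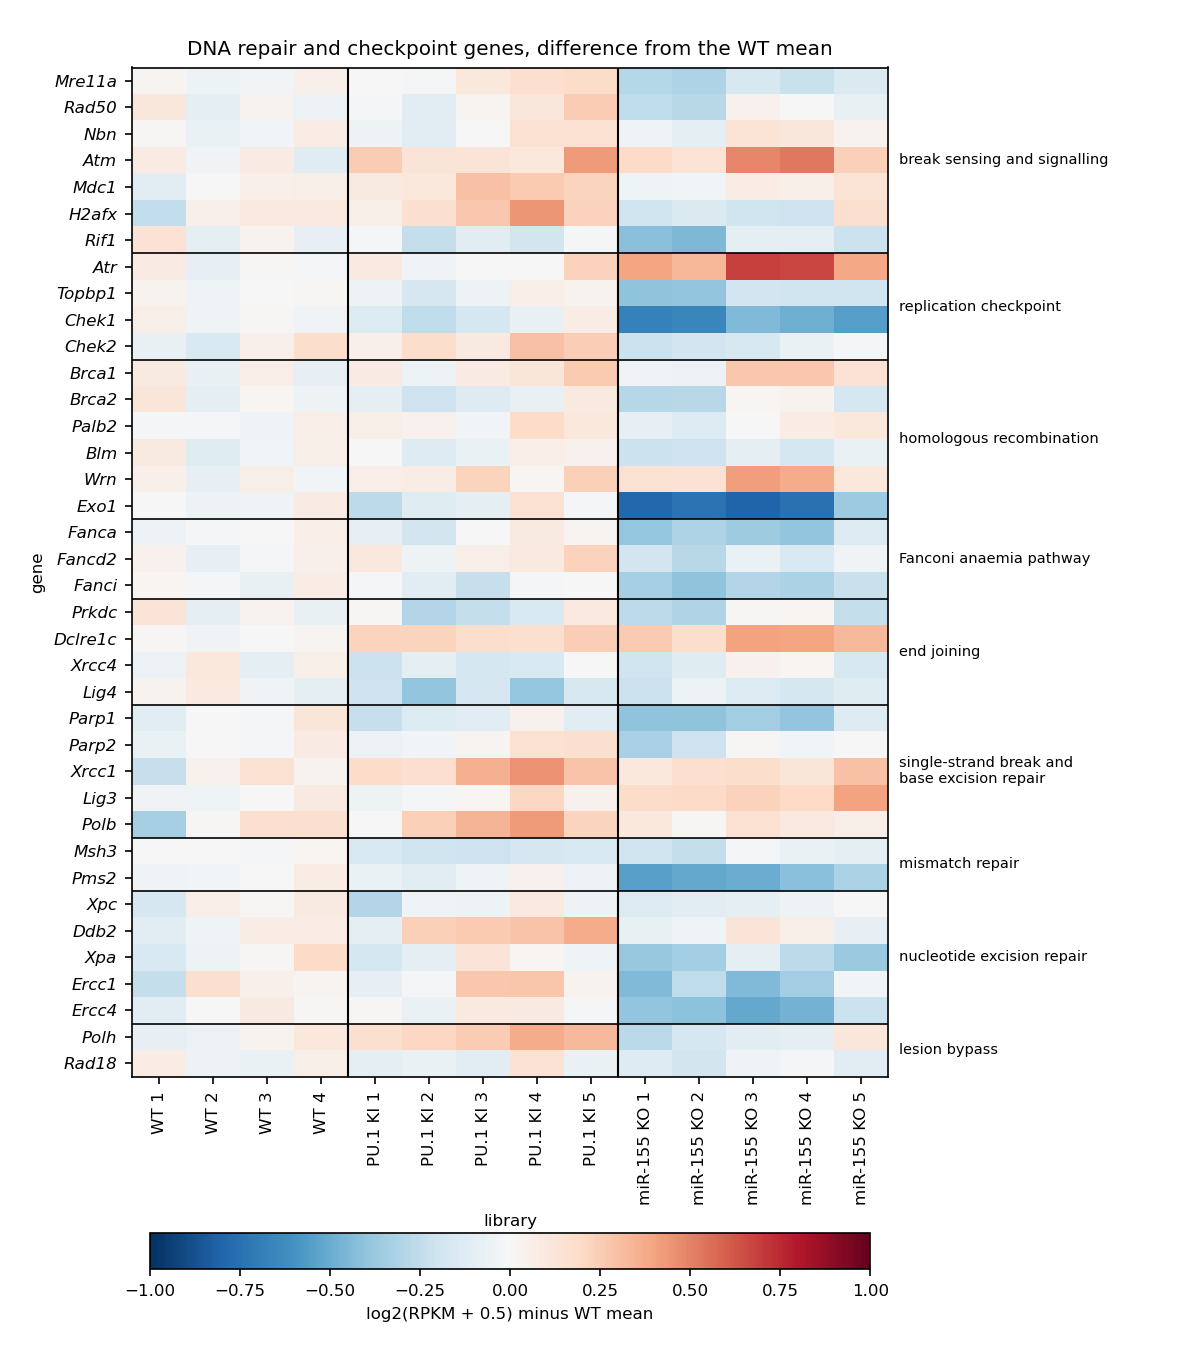
Each cell is a repair gene (rows, grouped by role) in a library (columns), coloured by log2(RPKM + 0.5) minus the gene's WT mean, from -1 (blue) to 1 (red). Exo1, Chek1, Pms2 and Ercc4 are blue in all 5 miR-155 KO libraries and Atr is red in all 5, while most rows of PU.1 KI stay pale.

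Among the sensors and signalling proteins of double-strand breaks, Atm rose and Mre11a and Rif1 fell in miR-155 KO, and Mdc1 rose in PU.1 KI, so the 7 genes of this group did not move as a block. Atm (NCBIM37 chr9:53247254-53344845, minus strand), the apical kinase of the break response, was at 12.4, 11.3, 12.3 and 10.6 RPKM in WT, 13.95, 12.8, 12.8, 12.6 and 15.8 in PU.1 KI and 13.3, 12.8, 16.5, 16.95 and 13.8 in miR-155 KO. Every library of either mutant lay above every WT library, with miR-155 KO libraries 3 and 4 the highest. The change was called in miR-155 KO against WT (log2 fold change 0.31 ± 0.09 SE, adjusted p = 0.00357) but not in PU.1 KI (0.21 ± 0.09, adjusted p = 0.0758), and the mutants themselves did not differ beyond the threshold (95% interval -0.06 to 0.27, adjusted p = 0.256). After quantile normalization Atm was higher in miR-155 KO than in PU.1 KI (0.27, adjusted p = 0.0217). With only the 2 groups compared in the fit it was called in PU.1 KI against WT (adjusted p = 0.0442).

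Mre11a (NCBIM37 chr9:14589098-14641567, plus strand), the nuclease of the complex with Rad50 and Nbn that grips broken ends, was at 7.19, 6.81, 6.91 and 7.33 RPKM in WT, 7.04, 6.99, 7.62, 7.995 and 8.06 in PU.1 KI and 5.69, 5.59, 6.28, 5.96 and 6.33 in miR-155 KO. All miR-155 KO libraries were below all others (against WT -0.23 ± 0.06, adjusted p = 0.00222; against PU.1 KI -0.31 ± 0.05, adjusted p = 6.33e-05). Its partners were not called in any comparison. Rad50, the ATPase that tethers the ends, had means of 9.06 ± 0.601, 9.45 ± 0.951 and 8.37 ± 0.888 RPKM (SD) in WT, PU.1 KI and miR-155 KO. Nbn, which brings ATM to the break, had 6.68 ± 0.291, 6.85 ± 0.586 and 6.84 ± 0.510. The protein complex thus had 1 of 3 subunit transcripts lower in miR-155 KO.

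Rif1, which restrains the trimming of broken ends and is needed for class switching, was at 9.89, 8.25, 9.13 and 8.37 RPKM in WT, 8.80, 7.46, 8.22, 7.75 and 8.77 in PU.1 KI and 6.54, 6.37, 8.28, 8.26 and 7.60 in miR-155 KO. It fell in miR-155 KO against WT (-0.26 ± 0.08, adjusted p = 0.00975) although the groups overlapped, since libraries 3 and 4 lay just inside the WT range. H2afx codes for the histone variant that is phosphorylated around breaks. It was at 14.1, 17.5, 18.1 and 18.1 RPKM in WT, 17.6, 18.9, 20.4, 23.03 and 19.8 in PU.1 KI and 14.6, 15.2, 14.7, 14.5 and 18.9 in miR-155 KO, and both libraries that stand apart were also off their groups for this gene. H2afx was lower in miR-155 KO than in PU.1 KI (-0.35 ± 0.08, adjusted p = 0.00136). Against WT it was not called (-0.12 ± 0.09, adjusted p = 0.256), but without WT library 1 and miR-155 KO library 5 it was lower (-0.27, adjusted p = 0.00235).

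Mdc1, the scaffold that reads phosphorylated H2AX, was at 5.25, 5.71, 5.92 and 5.96 RPKM in WT, 6.11, 6.19, 7.10, 6.93 and 6.73 in PU.1 KI and 5.52, 5.60, 6.02, 5.95 and 6.31 in miR-155 KO. All PU.1 KI libraries were above all WT libraries (0.19 ± 0.06, adjusted p = 0.0197), and miR-155 KO was lower than PU.1 KI (-0.16 ± 0.06, adjusted p = 0.0216). Both calls were lost without PU.1 KI library 3 (adjusted p = 0.0604 and 0.0673), the first also without WT library 1 (0.0859), and the second also without miR-155 KO library 1 (0.06) or 2 (0.0543), without PU.1 KI library 4 (0.0513) and with median-of-ratios scaling (0.177).

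The replication checkpoint showed opposite changes in its kinases: Atr rose and Chek1 fell in miR-155 KO, each by more than any other of the 37 genes in its direction, Exo1 excepted. Atr (NCBIM37 chr9:95758016-95852063, plus strand), the kinase that senses single-stranded DNA at stalled forks, was at 4.64, 4.08, 4.40 and 4.29 RPKM in WT, 4.68, 4.23, 4.36, 4.35 and 5.18 in PU.1 KI and 5.86, 5.59, 7.27, 7.20 and 5.85 in miR-155 KO. The lowest miR-155 KO library lay above the highest of both other genotypes, and libraries 3 and 4 were again the highest. Atr was at 146% of the WT mean (log2 fold change 0.49 ± 0.08 SE, adjusted p = 1.95e-05) and at 139% of the PU.1 KI mean (0.43 ± 0.07, adjusted p = 4.63e-05).

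Chek1 (NCBIM37 chr9:36516067-36534243, minus strand), the kinase that ATR activates to hold cells back from mitosis, was at 4.75, 4.42, 4.57 and 4.43 RPKM in WT, 4.08, 3.74, 3.98, 4.30 and 4.82 in PU.1 KI and 2.66, 2.72, 3.22, 3.09 and 2.95 in miR-155 KO. There was no overlap between miR-155 KO and either other genotype. Chek1 fell to 64.4% of the WT mean (-0.56 ± 0.07, adjusted p = 7.46e-07) and to 70% of the PU.1 KI mean (-0.45 ± 0.06, adjusted p = 6.41e-06). In PU.1 KI it was not called against WT on the deposited scale (-0.11 ± 0.07, adjusted p = 0.237) but was lower after median-of-ratios scaling (-0.19, adjusted p = 0.0323).

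Topbp1, the activator of ATR and in WT the second most abundant of the 37 transcripts, was at 28.2, 26.8, 27.4 and 27.8 RPKM in WT, 26.6, 24.5, 26.6, 28.9 and 28.3 in PU.1 KI and 20.7, 20.8, 24.1, 23.9 and 23.9 in miR-155 KO. Again no miR-155 KO library reached the other genotypes (against WT -0.28 ± 0.06, adjusted p = 0.000754; against PU.1 KI -0.25 ± 0.06, adjusted p = 0.00127). The call against PU.1 KI was lost after quantile normalization (-0.06, adjusted p = 0.292). Chek2, the kinase that ATM activates, was at 6.09, 5.76, 6.71 and 7.34 RPKM in WT, 6.68, 7.35, 6.89, 8.01 and 7.74 in PU.1 KI and 5.47, 5.57, 5.71, 6.13 and 6.37 in miR-155 KO. Chek2 was lower in miR-155 KO than in PU.1 KI with no overlap (-0.30 ± 0.07, adjusted p = 0.000652), whereas WT lay between and overlapped both.

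**Figure D2:**
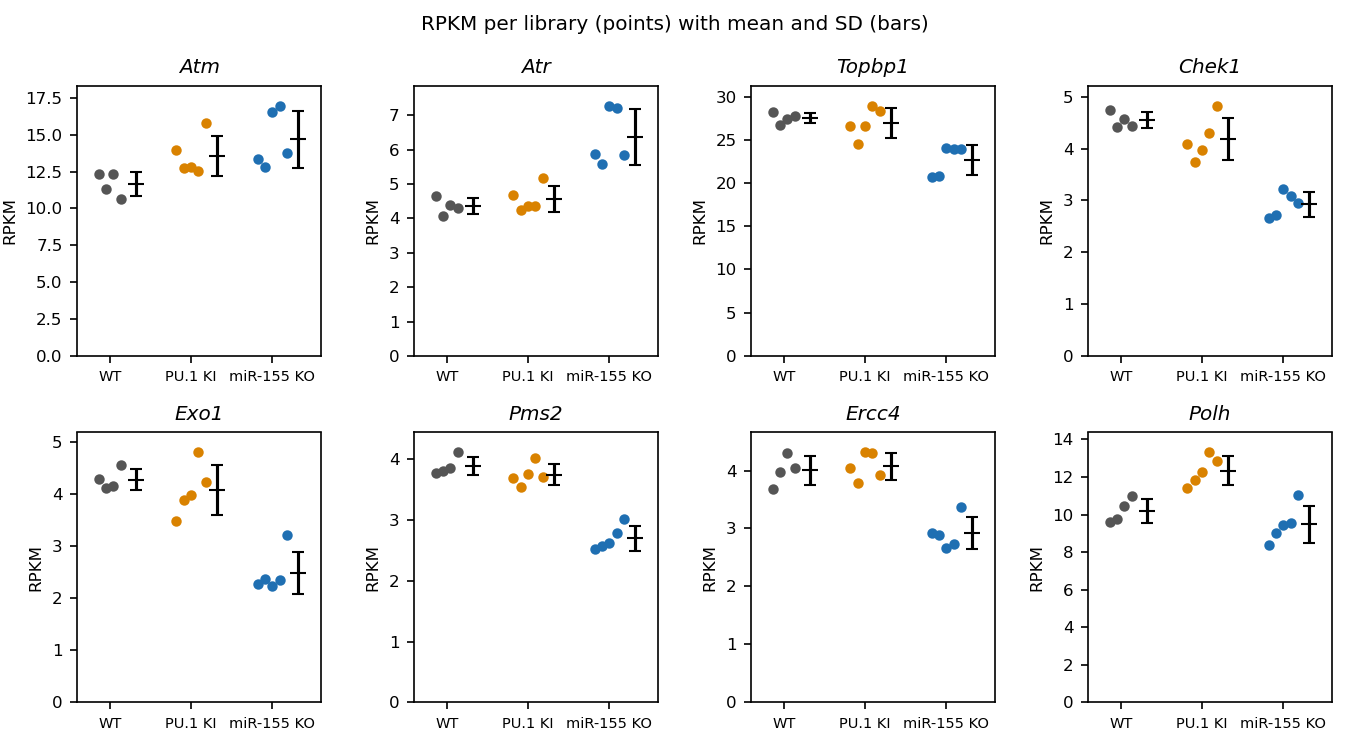
RPKM of 8 repair genes in each library (points; grey WT, orange PU.1 KI, blue miR-155 KO), with the mean and SD of each genotype as a bar beside them and axes starting at 0. For Atr the miR-155 KO points (5.59 to 7.27) lie above all others, and for Chek1, Exo1, Pms2 and Ercc4 they lie below all others, while Polh is highest in PU.1 KI.

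Within homologous recombination the recruiting proteins Brca1, Brca2 and Palb2 were not called in any comparison, and the changes were in a nuclease and in helicases. Exo1 (NCBIM37 chr1:177810909-177841527, plus strand) codes for the exonuclease that trims break ends and also removes the faulty strand in mismatch repair. It was at 4.29, 4.12, 4.16 and 4.56 RPKM in WT, 3.49, 3.88, 3.98, 4.80 and 4.23 in PU.1 KI and 2.27, 2.36, 2.24, 2.36 and 3.21 in miR-155 KO. All miR-155 KO libraries were below all others, with library 5 the highest of its group. Exo1 fell to 58.1% of the WT mean (log2 fold change -0.69 ± 0.09 SE, adjusted p = 1.42e-06) and to 61% of the PU.1 KI mean (-0.62 ± 0.08, adjusted p = 2.93e-06). Without WT library 1 and miR-155 KO library 5 these differences were -0.77 (adjusted p = 7.88e-08) and -0.70 (4.84e-08).

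Wrn and Blm, both helicases of the RecQ family that unwind recombination intermediates, went in different directions in miR-155 KO. Wrn was at 6.31, 5.70, 6.32 and 5.94 RPKM in WT, 6.36, 6.41, 7.16, 6.14 and 7.23 in PU.1 KI and 6.80, 6.73, 8.27, 7.98 and 6.57 in miR-155 KO, with every miR-155 KO library above WT (0.24 ± 0.07, adjusted p = 0.00703). Between the mutants Wrn was not called on the deposited scale (adjusted p = 0.138). It was higher in miR-155 KO than in PU.1 KI after median-of-ratios scaling (0.22, adjusted p = 0.0171). Blm was at 8.67, 7.45, 7.95 and 8.49 RPKM in WT, 8.17, 7.39, 7.73, 8.53 and 8.38 in PU.1 KI and 6.93, 6.99, 7.59, 7.14 and 7.72 in miR-155 KO. The groups overlapped, and Blm was lower in miR-155 KO than in WT (-0.15 ± 0.06, adjusted p = 0.0314) and than in PU.1 KI (-0.14 ± 0.06, adjusted p = 0.0395). The first call was lost without WT library 1 (adjusted p = 0.101) or 4 (0.0872) and without miR-155 KO library 1 (0.072), 2 (0.0676) or 4 (0.0585). The second was lost without miR-155 KO library 1 (0.0921), 2 (0.0861) or 4 (0.0745), without PU.1 KI library 1 (0.0612), 4 (0.0934) or 5 (0.0894), and after median-of-ratios scaling (-0.03, adjusted p = 0.573).

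Brca1, which directs ends into recombination, had means of 6.11 ± 0.427, 6.59 ± 0.562 and 6.69 ± 0.786 RPKM (SD) in WT, PU.1 KI and miR-155 KO. Brca2, which acts after it in the same pathway, had 2.70 ± 0.209, 2.52 ± 0.230 and 2.42 ± 0.323. Palb2, the bridge between them, had 1.58 ± 0.0691, 1.69 ± 0.119 and 1.57 ± 0.146. For Brca1 in miR-155 KO against WT the 95% interval of the log2 fold change was -0.05 to 0.28, for Brca2 -0.30 to 0.03 and for Palb2 -0.14 to 0.13.

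All 3 genes of the Fanconi anaemia pathway, which unhooks crosslinked strands, were lower in miR-155 KO than in PU.1 KI, and 2 of them were lower than in WT, against 46.4% and 35.3% of all tested genes. Fanca, a member of the core complex, was at 4.18, 4.34, 4.41 and 4.63 RPKM in WT, 4.12, 3.80, 4.37, 4.71 and 4.47 in PU.1 KI and 3.24, 3.44, 3.32, 3.22 and 3.95 in miR-155 KO. Only miR-155 KO library 5 reached the PU.1 KI range, and none reached WT (against WT -0.32 ± 0.07, adjusted p = 0.000354; against PU.1 KI -0.29 ± 0.06, adjusted p = 0.000539). Its span lies inside that of Gm20388, at 10.1 RPKM in WT on the other strand, with 50277 shared bases. No source used here says whether reads were counted by strand, so reads of the pair cannot be told apart. The same holds, over 221 to 2515 bases, for Fanci, Fancd2, Lig3, Msh3, Xrcc4, Ddb2 and Ercc1 and a neighbour of each on the other strand. Pms2 shares 4248 bases with Rsph10b2 on the same strand, at 0.144 RPKM in WT.

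Fanci and Fancd2 form the clamp that the core complex marks with ubiquitin. Fanci was at 3.52, 3.43, 3.26 and 3.67 RPKM in WT, 3.44, 3.19, 2.89, 3.42 and 3.46 in PU.1 KI and 2.65, 2.49, 2.74, 2.69 and 2.89 in miR-155 KO, with no overlap between miR-155 KO and WT (-0.31 ± 0.06, adjusted p = 0.000159). It was also lower than in PU.1 KI (-0.24 ± 0.06, adjusted p = 0.00104), where the lowest PU.1 KI library, 2.89, met the highest of miR-155 KO. Fancd2 was at 4.41, 4.003, 4.24 and 4.43 RPKM in WT, 4.63, 4.11, 4.45, 4.61 and 5.08 in PU.1 KI and 3.69, 3.43, 4.06, 3.78 and 4.15 in miR-155 KO. It was called against PU.1 KI (-0.23 ± 0.06, adjusted p = 0.00236) and missed the threshold against WT (-0.14 ± 0.06, adjusted p = 0.0556).

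In end joining, the route that class switching uses, Dclre1c rose in both mutants and the other tested genes were not called. Dclre1c codes for Artemis, the nuclease that opens hairpins and trims ends. It was at 2.04, 1.95, 2.002 and 2.05 RPKM in WT, 2.43, 2.44, 2.33, 2.30 and 2.48 in PU.1 KI and 2.51, 2.34, 2.82, 2.81 and 2.64 in miR-155 KO. Every library of either mutant exceeded every WT library, and the mutants overlapped each other. Dclre1c rose in PU.1 KI (0.21 ± 0.06, adjusted p = 0.0108) and in miR-155 KO (0.31 ± 0.06, adjusted p = 9.78e-05), and was the 1 gene called higher in both. The PU.1 KI call was lost after median-of-ratios scaling (0.13, adjusted p = 0.0852). On that scale Dclre1c was higher in miR-155 KO than in PU.1 KI (0.20, adjusted p = 0.00438). The gene shares 8316 bases with Suv39h2 on the other strand, at 1.78 RPKM in WT.

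Prkdc, the catalytic subunit of the DNA-dependent kinase, had means of 5.21 ± 0.402, 4.79 ± 0.621 and 4.65 ± 0.566 RPKM (SD) in WT, PU.1 KI and miR-155 KO. Xrcc4, the partner of the joining ligase, had 3.64 ± 0.280, 3.29 ± 0.218 and 3.41 ± 0.302. Lig4, that ligase itself, was the gene under the filter and has no test: it was at 0.863, 0.925, 0.798 and 0.750 RPKM in WT, 0.652, 0.515, 0.683, 0.518 and 0.694 in PU.1 KI and 0.645, 0.786, 0.708, 0.680 and 0.725 in miR-155 KO. Its PU.1 KI libraries all lay below WT, and its miR-155 KO libraries overlapped both.

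In single-strand break and base excision repair, Parp1 fell and Lig3 rose in miR-155 KO, and Xrcc1 rose in PU.1 KI. Parp1 (NCBIM37 chr1:182499086-182531384, plus strand), the enzyme that marks nicks with ADP-ribose chains, had the highest level of all 38 genes. It was at 70.98, 76.6, 75.7 and 83.1 RPKM in WT, 65.2, 69.5, 71.02, 78.8 and 70.6 in PU.1 KI and 57.6, 57.7, 59.9, 58.0 and 69.9 in miR-155 KO. No miR-155 KO library reached WT (-0.34 ± 0.07, adjusted p = 0.000315), but library 5 lay within PU.1 KI (-0.23 ± 0.07, adjusted p = 0.00494). The latter call was lost after quantile normalization (-0.03, adjusted p = 0.435), and in PU.1 KI against WT median-of-ratios scaling gave a lower level (-0.20, adjusted p = 0.00124) that the deposited scale did not call (adjusted p = 0.26). Its relative Parp2 was at 13.5, 14.1, 13.9 and 14.98 RPKM in WT, 13.6, 13.9, 14.4, 15.8 and 15.8 in PU.1 KI and 11.2, 12.2, 14.2, 13.9 and 14.1 in miR-155 KO. Parp2 was lower in miR-155 KO than in PU.1 KI by a margin that barely passed (-0.16 ± 0.07, adjusted p = 0.0435). It did not pass without any 1 of miR-155 KO libraries 1 and 2, PU.1 KI libraries 3, 4 and 5, or WT libraries 2 and 3 (adjusted p = 0.0502 to 0.15), and the difference shrank to -0.06 (adjusted p = 0.334) with median-of-ratios scaling and to -0.01 (0.865) with quantile normalization. It was also lost with no filter on low values (0.0685) and with only the 2 groups compared in the fit (0.0584).

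Xrcc1, the scaffold of nick repair, was at 21.6, 26.1, 28.3 and 26.01 RPKM in WT, 28.9, 28.6, 32.6, 34.9 and 31.01 in PU.1 KI and 27.4, 28.6, 28.8, 27.6 and 31.2 in miR-155 KO. All PU.1 KI libraries were above WT, where library 1 was the lowest (log2 fold change 0.29 ± 0.07 SE, adjusted p = 0.00691; without WT library 1 and miR-155 KO library 5, 0.21, adjusted p = 0.0215). In miR-155 KO the change was 0.17 ± 0.07 and just missed the threshold (adjusted p = 0.0506), whereas median-of-ratios scaling called it (0.19, adjusted p = 0.00216). Lig3, the ligase that XRCC1 carries, was at 5.73, 5.68, 5.86 and 6.29 RPKM in WT, 5.67, 5.84, 5.96, 6.86 and 6.08 in PU.1 KI and 6.76, 6.80, 6.97, 6.81 and 7.93 in miR-155 KO. All miR-155 KO libraries exceeded WT, with library 5 the highest (0.24 ± 0.06, adjusted p = 0.00229), and Lig3 was also higher than in PU.1 KI (0.20 ± 0.06, adjusted p = 0.00584). Polb, the gap-filling polymerase of base excision repair, had means of 11.6 ± 1.83, 13.8 ± 1.52 and 12.2 ± 0.456 RPKM (SD). It missed the threshold in PU.1 KI by the smallest margin of any repair gene (0.25 ± 0.09, adjusted p = 0.0502).

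In mismatch repair Pms2 fell in miR-155 KO and Msh3 fell in PU.1 KI. Pms2 (NCBIM37 chr5:144670833-144698178, plus strand), the subunit that nicks the faulty strand, was at 3.77, 3.80, 3.86 and 4.10 RPKM in WT, 3.69, 3.54, 3.76, 4.02 and 3.70 in PU.1 KI and 2.51, 2.57, 2.61, 2.78 and 3.01 in miR-155 KO. Its miR-155 KO libraries were all below the rest (to 69.5% of the WT mean, -0.46 ± 0.06, adjusted p = 1.28e-06; against PU.1 KI -0.41 ± 0.05, adjusted p = 2.8e-06). In PU.1 KI Pms2 was not called against WT on the deposited scale (adjusted p = 0.583). After median-of-ratios scaling it was lower there (-0.13, adjusted p = 0.0278). Msh3, which recognises longer unpaired loops, was at 2.96, 2.95, 2.91 and 3.01 RPKM in WT, 2.61, 2.51, 2.50, 2.58 and 2.61 in PU.1 KI and 2.51, 2.43, 2.90, 2.80 and 2.74 in miR-155 KO. Both mutants were below WT in every library, by a small amount that was called in PU.1 KI (-0.18 ± 0.05, adjusted p = 0.0207) and not in miR-155 KO (-0.13 ± 0.05, adjusted p = 0.052). The mutants did not differ beyond the threshold on the deposited scale (95% interval -0.06 to 0.16), and the PU.1 KI call was lost without PU.1 KI library 3 (-0.17, adjusted p = 0.0506). After median-of-ratios scaling Msh3 was higher in miR-155 KO than in PU.1 KI (0.14, adjusted p = 0.0159).

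Nucleotide excision repair, which cuts out bulky lesions, had 3 of 5 genes lower in miR-155 KO than in WT and 4 of 5 lower than in PU.1 KI, against 35.3% and 46.4% of all tested genes. The recognition genes Xpc and Ddb2 were not called against WT. Ercc4 (NCBIM37 chr16:13109777-13148827, plus strand) and Ercc1 code for the nuclease pair that makes 1 of the incisions. Ercc4 was at 3.69, 3.98, 4.30 and 4.05 RPKM in WT, 4.04, 3.79, 4.31, 4.30 and 3.93 in PU.1 KI and 2.93, 2.88, 2.66, 2.74 and 3.38 in miR-155 KO. No miR-155 KO library overlapped the others (-0.40 ± 0.06, adjusted p = 2.66e-05; against PU.1 KI -0.42 ± 0.06, adjusted p = 8.11e-06). Ercc1, which carries the longer miR-155 seed match shown above, was at 3.51, 4.78, 4.40 and 4.32 RPKM in WT, 3.96, 4.16, 5.21, 5.24 and 4.35 in PU.1 KI and 2.98, 3.46, 2.99, 3.23 and 4.15 in miR-155 KO. The groups overlapped through WT library 1 and miR-155 KO library 5, and Ercc1 was lower in miR-155 KO than in WT (-0.30 ± 0.10, adjusted p = 0.0114) and than in PU.1 KI (-0.40 ± 0.09, adjusted p = 0.000938). Both calls were kept without these libraries.

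Xpa, which checks the lesion before incision, was at 3.75, 4.05, 4.25 and 4.87 RPKM in WT, 3.66, 3.93, 4.65, 4.27 and 4.08 in PU.1 KI and 3.12, 3.22, 3.92, 3.42 and 3.14 in miR-155 KO. Xpa fell against WT (-0.29 ± 0.08, adjusted p = 0.00315) and was lower than in PU.1 KI (-0.26 ± 0.07, adjusted p = 0.00483), with miR-155 KO library 3 inside both ranges. It shares 17057 bases with Ncbp1, at 21.3 RPKM in WT, on the other strand. Ddb2, a sensor of ultraviolet lesions, was at 5.68, 5.93, 6.49 and 6.51 RPKM in WT, 5.71, 7.33, 7.47, 7.61 and 8.08 in PU.1 KI and 5.81, 5.95, 6.76, 6.41 and 5.77 in miR-155 KO. In 4 of 5 PU.1 KI libraries it lay above every other library, with PU.1 KI library 1 low. It was called in miR-155 KO against PU.1 KI alone (-0.22 ± 0.07, adjusted p = 0.0173), a call lost without PU.1 KI library 5 (adjusted p = 0.054) and after median-of-ratios scaling (0.123). Xpc, the sensor of distorted helices, had means of 3.13 ± 0.284, 2.97 ± 0.326 and 2.94 ± 0.129 RPKM (SD).

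In lesion bypass Polh rose in PU.1 KI, and it was lower in miR-155 KO than in PU.1 KI. Polh codes for polymerase eta, which copies past damage and introduces mutations during antibody hypermutation. It was at 9.60, 9.79, 10.5 and 10.97 RPKM in WT, 11.4, 11.8, 12.3, 13.3 and 12.9 in PU.1 KI and 8.36, 9.04, 9.46, 9.55 and 11.03 in miR-155 KO. All PU.1 KI libraries lay above both other genotypes (against WT 0.26 ± 0.07, adjusted p = 0.00809; miR-155 KO against PU.1 KI -0.37 ± 0.07, adjusted p = 8.81e-05). Polh and Xrcc1 were the only PU.1 KI calls kept under every alternative setting tried. Rad18, the ubiquitin ligase that recruits bypass polymerases, had means of 6.42 ± 0.356, 6.26 ± 0.492 and 5.98 ± 0.323 RPKM (SD) and was not called in any comparison.

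**Figure D3:**
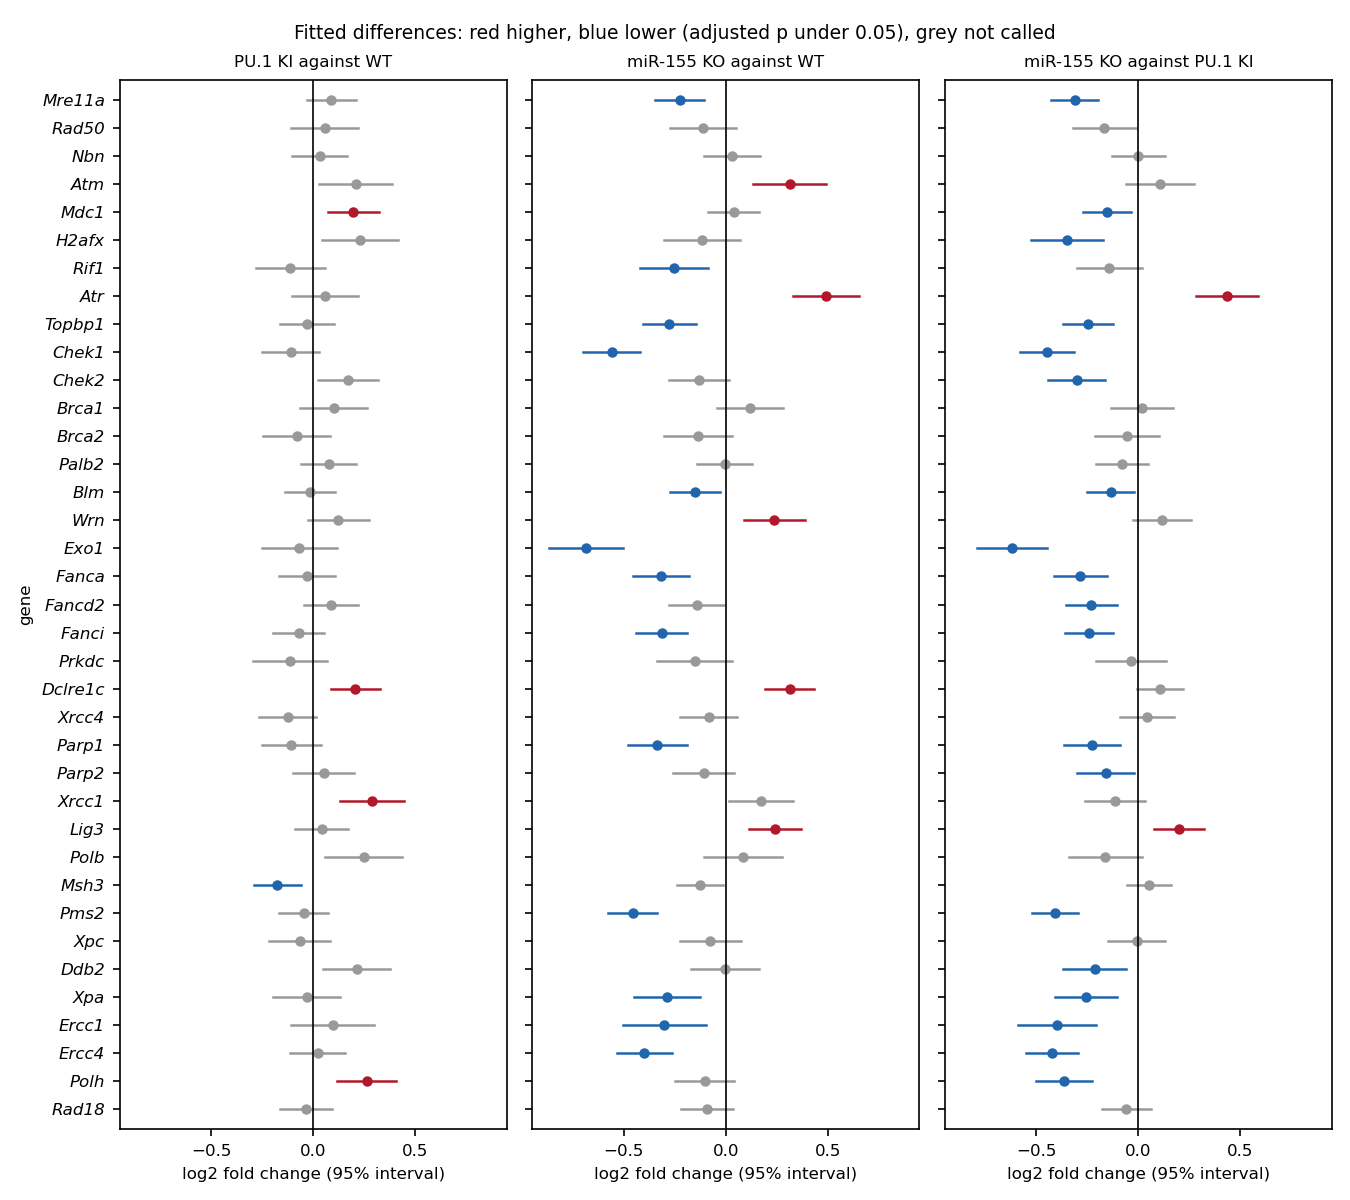
Fitted log2 fold change of each of the 37 tested repair genes (points) with its 95% interval (lines) in the 3 comparisons, red where called higher, blue where called lower and grey where not called. In PU.1 KI against WT the points lie between -0.18 and 0.29, and in miR-155 KO against WT they reach -0.69 (Exo1) and 0.49 (Atr).

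Set against each other, 12 genes were lower in miR-155 KO than in both other genotypes, and Atr and Lig3 were higher than in both. Mdc1 and Polh were higher in PU.1 KI than in both other genotypes. H2afx, Chek2, Fancd2, Parp2 and Ddb2 were called between the mutants alone in the main fit. Under some alternative settings each of them was also called in 1 or both mutants against WT. Shares of all tested genes in such joint classes were not counted, so these counts are not read as particular to the repair genes. Of all tested genes, 27.2% were higher and 35.3% lower in miR-155 KO than in WT, and 17.9% and 46.4% than in PU.1 KI. Not called in any comparison of the main fit were 10 genes: Rad50, Nbn, Brca1, Brca2, Palb2, Prkdc, Xrcc4, Polb, Xpc and Rad18. Of these, Rad50, Polb, Xrcc4 and Xpc were called under some alternative settings, and the rest under none. Xrcc4 and Xpc were lower in PU.1 KI than in WT after median-of-ratios scaling (adjusted p = 0.0268 and 0.0368). Polb was higher there without PU.1 KI library 1 (0.0133). Rad50 was lower in miR-155 KO than in PU.1 KI without miR-155 KO library 3 (0.0257). For genes not called, the 95% intervals of the log2 fold change stayed within -0.30 to 0.44 in PU.1 KI against WT, -0.34 to 0.33 in miR-155 KO against WT and -0.34 to 0.27 between the mutants. Libraries of miR-155 KO were all above WT for 5 of the 37 tested genes and all below for 10, against 23.5% and 24.9% of all tested genes, of which 27.2% were called higher and 35.3% lower.

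Repair genes active in dividing cells often carry sites for the E2F factors, which switch genes on as cells enter S phase. RefSeq promoter windows of 300 bases (250 before to 50 after a start site, GRCm38.p6) were found for 27 of the 38 genes (not for Rad50, Nbn, H2afx, Rif1, Wrn, Exo1, Fancd2, Prkdc, Polb, Xpc and Ddb2). They were searched on both strands for TTTGGCGC, TTTCGCGC, TTTCCCGC and TTTGCCGC, whose ends can overlap on opposite strands. A match was present in 5 of 27 genes (18.5%), against 5.19% of tested genes with a promoter and 2.6% of all 27025 genes in the RefSeq promoter set. The matching bases are in capitals within short windows, each read 5′ to 3′ on the gene's own strand.
Brca2: taggccacaGCGGGAAAcagacacac
Chek2: ggattagccGCGGGAAAccaagacgt
Mdc1: ttcagcctgTTTCCCGCcggtagccg
Msh3: gccgtcaagTTTGGCGCgaaatcgca
Topbp1: gctcggttgGCGCGAAAgtcggttcc
In the Msh3 window GCGCGAAA, the reverse complement of TTTCGCGC, overlaps the bases in capitals. These windows lie, in the order shown, at chr5:150522444-150522469 (plus strand), chr5:110839822-110839847 (plus), chr17:35841473-35841498 (plus), chr13:92355189-92355214 (minus) and chr9:103305189-103305214 (plus). Of these 5 genes Topbp1 was the 1 lower in miR-155 KO than in WT, and Chek2, Mdc1 and Topbp1 were lower than in PU.1 KI. Chek1, Pms2, Ercc4, Parp1, Fanca, Fanci, Ercc1 and Xpa, which fell more than Topbp1 in miR-155 KO against WT, had no match in this window. The part of these matches in the results was not tested.

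A list of 111 further repair genes, chosen by name but with earlier results of these data known, had 107 rows and 102 tested genes. In miR-155 KO against WT 18 of them were higher (17.6%, against 27.2% of all tested genes) and 57 lower (55.9%, against 35.3%). Their median log2 fold change was -0.19. In PU.1 KI against WT 11 were higher and 4 lower (10.8% and 3.92%, against 23.7% and 4.03% of all tested genes), with a median of 0.00. This balance turned to 8 higher and 27 lower (median -0.08) with median-of-ratios scaling, against 17.5% and 15.6% of all tested genes. With quantile normalization it was 5 and 28. Between the mutants 13 were higher and 57 lower in miR-155 KO (12.7% and 55.9%, against 17.9% and 46.4% of all tested genes). The genes that fell with the smallest adjusted p in miR-155 KO were Neil1, a glycosylase of base excision repair (48.9 against 83.4 RPKM in WT, -0.76 ± 0.06, adjusted p = 3.34e-09), the phosphatase gene Cdc25b (21.7 against 35.5, -0.69 ± 0.06, adjusted p = 6.3e-09) and Tipin, a fork protection factor (21.2 against 37.2, -0.80 ± 0.08, adjusted p = 5.27e-08). Those that rose with the smallest adjusted p were the incision nuclease Ercc5 (4.72 against 2.85, 0.64 ± 0.07, adjusted p = 4.13e-07), the end joining factor Aplf (0.39 ± 0.05) and the bypass polymerase Polk (0.47 ± 0.07).

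The same rule named other genes in the remaining comparisons. In PU.1 KI, Polm, an end joining polymerase, rose from 5.77 to 9.24 RPKM (0.64 ± 0.05, adjusted p = 6.22e-08), beside Ercc5 (0.39 ± 0.07) and Rad52 (0.34 ± 0.07). Xrcc5, which codes for a subunit of the Ku end-binding complex, fell from 4.26 to 2.67 RPKM (-0.59 ± 0.08, adjusted p = 3.15e-05), with Neil3 (-0.27 ± 0.07) and Recql (-0.18 ± 0.06). Against PU.1 KI, miR-155 KO was lower in Neil1 (48.9 against 75.8 RPKM, -0.63 ± 0.06, adjusted p = 2.91e-08) and Cdc25b (-0.55 ± 0.06), and higher in Mbd4 (0.45 ± 0.06), Wee1 (0.47 ± 0.06) and Mlh3 (0.41 ± 0.07).

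**Figure D4:**
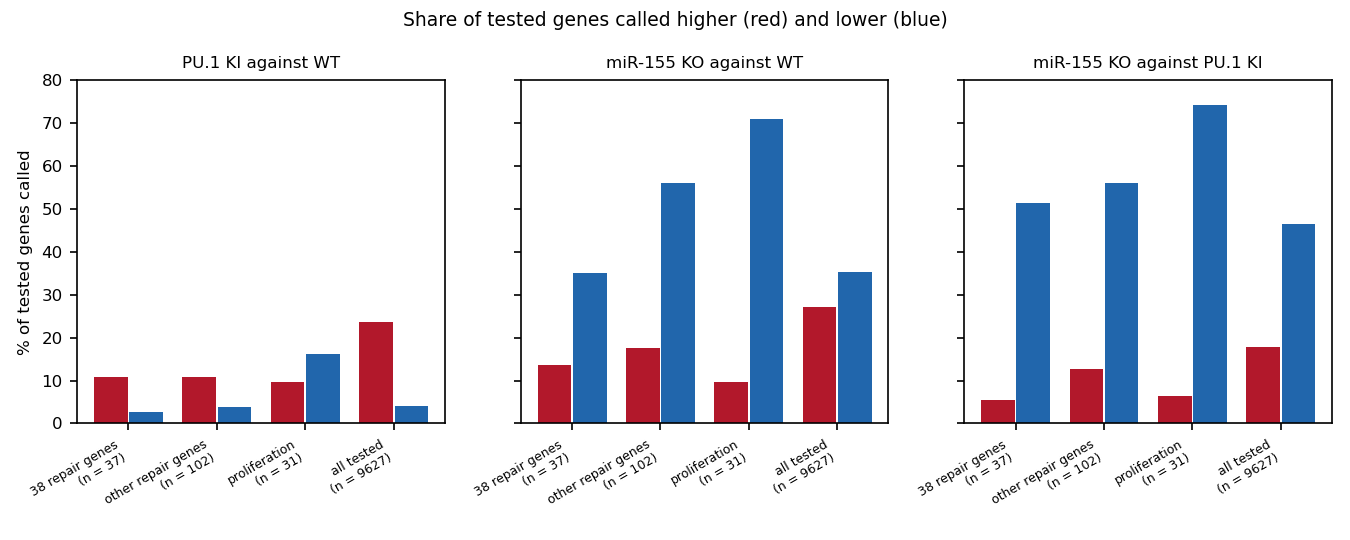
Share of tested genes called higher (red) and lower (blue) in each comparison for the 38 repair genes (37 tested), 102 other repair genes, 31 proliferation genes and all 9627 tested genes. In miR-155 KO against WT the lower share is 35.1% for the repair genes, close to the 35.3% of all tested genes, and 71.0% for the proliferation genes.

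Proliferation genes and p53 targets were read from the same fit. Of 31 proliferation genes 3 were higher and 22 lower in miR-155 KO than in WT (9.68% and 71.0%, against 27.2% and 35.3% of all tested genes). Their median log2 fold change was -0.33. In PU.1 KI 3 were higher and 5 lower (9.68% and 16.1%, against 23.7% and 4.03%), with a median of -0.03. There median-of-ratios scaling gave 1 higher and 14 lower (median -0.12), against 17.5% and 15.6% of all tested genes, and quantile normalization 2 and 13. Against PU.1 KI, 2 were higher and 23 lower in miR-155 KO (6.45% and 74.2%, against 17.9% and 46.4% of all tested genes). The replication helicase genes Mcm3 (44.3 against 79.7 RPKM in WT, -0.85 ± 0.07, adjusted p = 9.89e-09) and Mcm7 (-0.74 ± 0.07) and the sliding clamp gene Pcna (-0.76 ± 0.07) fell, while Tk1 (0.41 ± 0.06), Cdt1 (0.69 ± 0.14) and Tyms (0.21 ± 0.06) rose. In PU.1 KI against WT, Tk1 (0.37 ± 0.06), Aurka (0.17 ± 0.06) and Aurkb (0.21 ± 0.07) rose, and Pola1 (-0.25 ± 0.06), Ccne2 (-0.31 ± 0.08) and Pcna (-0.22 ± 0.07) fell, on the deposited scale. Compared with PU.1 KI, miR-155 KO was higher in Cdt1 (0.55 ± 0.13) and Tyms (0.16 ± 0.06) and lower in Mcm3 (-0.78 ± 0.07), Mcm7 (-0.70 ± 0.06) and Cdc45 (-0.60 ± 0.06). Their part in the repair result was not tested. Of 20 p53 genes 9 were higher and 5 lower in miR-155 KO than in WT (45% and 25%, against 27.2% and 35.3% of all tested genes). The death gene Pmaip1 was at 74.9 RPKM against 10.8 in WT (2.75 ± 0.07, adjusted p = 2.36e-16) and the cell cycle inhibitor gene Cdkn1a at 31.1 against 11.6 (1.39 ± 0.08, adjusted p = 5.63e-11), followed by Zmat3 (0.62 ± 0.06), whereas Btg2 (-0.38 ± 0.06), Plk2 (-0.34 ± 0.06) and Aen (-0.26 ± 0.08) fell. In PU.1 KI, Pmaip1 (1.02 ± 0.07, adjusted p = 3.55e-09), Cdkn1a (0.46 ± 0.08) and Zmat3 (0.30 ± 0.06) also rose, and Trp53inp1 (-0.32 ± 0.06) fell. In all, 7 p53 genes were higher and 1 lower there (35% and 5%, against 23.7% and 4.03% of all tested genes). Between the mutants 8 were higher and 6 lower in miR-155 KO (40% and 30%, against 17.9% and 46.4% of all tested genes). Pmaip1 (1.73 ± 0.07), Trp53inp1 (0.89 ± 0.05) and Cdkn1a (0.93 ± 0.08) were higher. Btg2 (-0.34 ± 0.06), Aen (-0.33 ± 0.07) and Trp53 itself (-0.38 ± 0.08) were lower.

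The direction of the repair genes in miR-155 KO went with the length of their transcripts, as it did for all genes. The 5 that rose have longest annotated transcripts (GENCODE M21) of 5957 to 9819 bases, and the 13 that fell have 1241 to 8509 bases. Of the 10 tested repair genes of 6 kb and over, 4 were higher and 2 lower, the latter being Exo1 and Rif1. Of the 27 shorter ones 1 was higher and 11 lower (3.7% and 40.7%). Over all tested genes the median log2 fold change in miR-155 KO against WT was -0.126 for transcripts under 2 kb, with 19.7% higher and 43.3% lower, and 0.068 for those of 6 kb and over, with 39.7% higher and 21.2% lower. In PU.1 KI against WT the same medians were 0.081 and 0.072. Within genotypes the balance of long and short transcripts also varied between libraries: relative to its own group's mean it was 0.066 and 0.091 on the log2 scale in miR-155 KO libraries 3 and 4, in which Atm, Atr and Wrn were highest, and -0.08 in library 5. WT library 1 had the highest value of all libraries, 0.099, against -0.049 to -0.019 in the other WT libraries. The part of transcript length in these results was not tested.

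**Figure D5:**
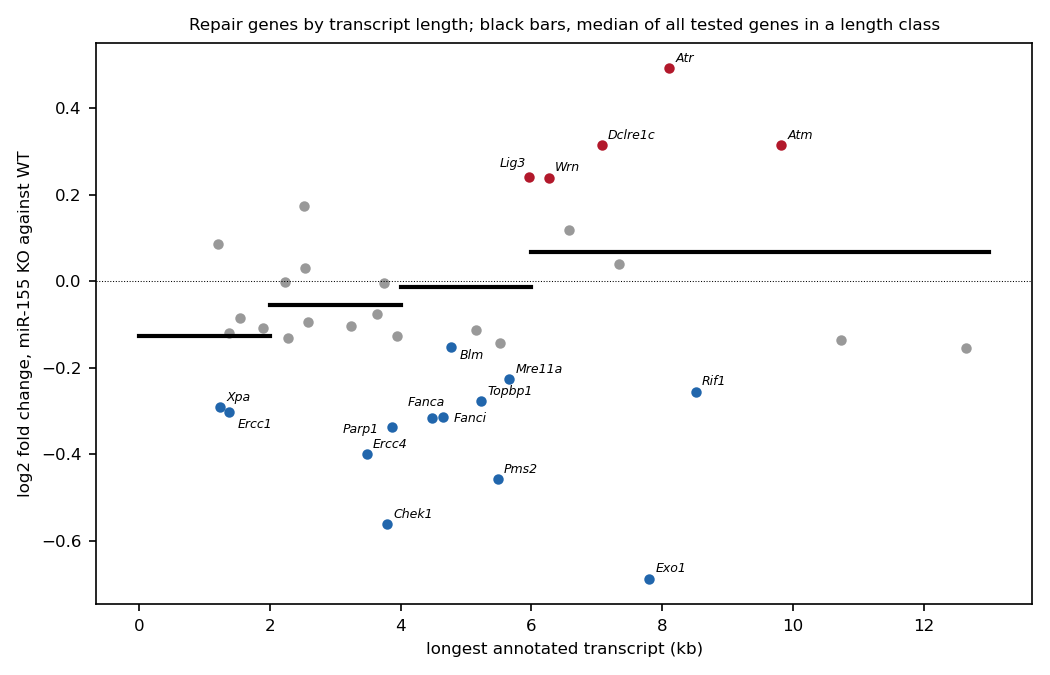
Log2 fold change of each tested repair gene in miR-155 KO against WT (vertical axis) by its longest annotated transcript in kb (horizontal axis), red where called higher, blue where called lower and grey where not called, with black bars for the median of all tested genes in each length class. Genes above the zero line that were called sit near 6 kb or beyond it, while Exo1 and Rif1 are long and fell.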

How the data were processed

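RNA was measured in 14 libraries, each a GEO sample with its own column, and 0 columns were left unmatched. The authors deposited RPKM values per gene. Trim Galore, TopHat and the build NCBIM37 are named, without versions or order, in the submitters' processing notes. No source used here names the read counter, the annotation or the strand setting. Of 22295 rows 63 repeat a gene, and each row was kept.

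Rows with at least 1 RPKM in at least 4 libraries (9627) were transformed to log2(RPKM + 0.5) and fitted with limma 3.58.1 (R 4.3.3). This is a scale that understates the change of low genes. The fit had 1 mean per genotype and empirical Bayes moderation with an intensity trend. Tests were two-sided, with Benjamini-Hochberg adjusted p under 0.05 over all tested rows, and the scripts were tested on simulated data. Each p-value sets the difference between genotype means against the spread of libraries within genotypes, pooled over the genotypes. Depth came from the steps of the lowest 250 RPKM values of genes spanning under 2500 bp, of which 69.2% to 82.0% were whole reads within 0.01. No count test was run, since the sources used here do not give the gene lengths behind the RPKM.

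The 38 genes and the other lists were chosen with earlier results of these data known. Every repair gene with a row is named. Of other repair genes, p53 genes and proliferation genes, up to 3 with the smallest adjusted p in each direction and comparison are named, plus Sfpi1, except 1 gene that is not reported here. Alternatives were another pseudocount, filter or scaling, the replicate block, a fit of only the groups compared, and each library left out. Gene positions are those of the table (NCBIM37), and sequences are from GRCm38 references. Tables came from pandas 2.3.3 and numpy 2.4.6, and figures from matplotlib 3.10.9 (Python 3.11.15).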

Additional observations from a re-analysis of the deposited data

Results flagged for a closer look

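In 6 of the 114 groups of libraries examined (each repair gene in each genotype), 1 library lay far from the others by Dixon's test, and chance gives about 1 in 20. In miR-155 KO library 5, which also stood apart on the first principal component, H2afx was at 18.86 RPKM (the next library at 15.17), Exo1 at 3.213 (2.362), Parp1 at 69.89 (59.87) and Lig3 at 7.928 (6.972). In WT library 1 H2afx was at 14.11 RPKM, with the next lowest at 17.52. In PU.1 KI library 4 Rad18 was at 7.128 RPKM, with the next at 6.119. The calls of Exo1, Parp1 and Lig3 against WT were kept without miR-155 KO library 5 and WT library 1.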

How the results depend on the processing

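No result of the 38 genes changed its direction while called. Of the calls on the repair genes, 2 of 5 in PU.1 KI against WT (Xrcc1 and Polh), 17 of 18 in miR-155 KO against WT (all but Blm) and 15 of 21 between the mutants were kept under every alternative in which the gene was tested, the 5 RPKM filter leaving some untested. In PU.1 KI against WT, 5 calls became 9 with median-of-ratios scaling and 9 with quantile normalization (3 higher, 6 lower each), and 3 to 9 with 1 library left out (3 without PU.1 KI library 3, 9 without PU.1 KI library 1, 8 without miR-155 KO library 5). The 15 calls among other repair genes became 6 with the 5 RPKM filter, 35 with median-of-ratios scaling (8 higher, 27 lower), 33 with quantile normalization (5 higher, 28 lower) and 7 to 17 with 1 library left out (7 without WT library 1, 9 without PU.1 KI library 3). Under the 5 RPKM filter, which tests 22 of the repair genes and 61 of the others, the calls were 10 and 49 in miR-155 KO against WT and 13 for the repair genes between the mutants. With 1 library left out, the repair genes gave 17 to 22 calls in miR-155 KO against WT and 18 to 23 between the mutants, and other repair genes 64 to 76 and 64 to 75. Correlations between same-numbered libraries were 0.04 to 0.358 in PU.1 KI against WT, -0.277 to 0.466 in miR-155 KO against WT and -0.387 to 0.224 between the mutants, so the numbers were not taken to pair the libraries, and 4 of 14 libraries correlated best with their own number. With the replicate block the repair genes gave 8 calls in PU.1 KI against WT (Polb, Ddb2 and Chek2 added), 24 in miR-155 KO against WT and 23 between the mutants. Shares of all tested genes were not counted under the 5 RPKM filter, under the replicate block or with libraries left out. Of the 38 genes Lig4, under 1 RPKM in every library, was not tested at the 1 RPKM filter.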
